A study of Mus musculus with 14 samples.

Results

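The spots described here were the cDNA array probes whose only gene symbol in the platform annotation was Hba-a1, Hba-x, Hbb-y or Eif2ak1. There were 13 such spots among the 15247 probes of the array: 7 of Hba-a1, 1 of Hba-x, 4 of Hbb-y and 1 of Eif2ak1. Of the 7 Hba-a1 spots, 6 carried the same cDNA clone and the remaining spot another, and the 4 Hbb-y spots carried a single clone, so spots of a gene were repeats on an array and not replicates of a strain. All 13 had a value on some arrays, and 12 had values on at least 3 arrays of each strain and could be tested. The exception was Hba-a1 spot 4, which had 2 AcB55 values.

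The study, titled with resistance to malaria, compared spleen RNA of 2 mouse strains with that of A/J mice on 14 arrays, 6 of AcB55 and 8 of AcB61. Both strains were derived from A/J mice into which parts of the C57BL/6 genome were bred (recombinant congenic lines), and both are known to carry a loss-of-function allele of Pklr, the pyruvate kinase of red cells. The labels did not give that allele, the age or sex of the mice, whether they were infected, or which arrays shared a mouse, so the p-values measure the spread between arrays. Each array gave a log2 ratio of its channels per probe, read as strain over A/J because the labels named the strain first and A/J second on all 14 arrays. A value of 1 is then a ratio of 2, and this direction is likely but not settled, since the dyes and the log base were not given in the sources used here. Between 14197 and 14588 probes had a value per array, with array medians from -0.02 to 0.01. A/J was never hybridised against A/J, so the spread among A/J mice is left out. Ratios carry no level, so the tissue could not be checked against its defining markers. In whole spleen, more cells of a type and more RNA per cell cannot be told apart.

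Haemoglobin is built from alpha-like and beta-like globin chains, each holding a haem group. The alpha-like genes lie in one cluster and the beta-like genes in another, and in each cluster separate genes serve the embryo and the adult. Hba-a1 encodes the adult alpha chain, Hba-x the embryonic zeta chain and Hbb-y an embryonic beta-like chain. Eif2ak1 encodes the haem-regulated inhibitor (HRI), a kinase of red cell precursors that is held inactive by haem. When haem is scarce it phosphorylates the initiation factor eIF2, which lowers globin translation and raises translation of the transcription factor Atf4. The spleen of an adult mouse can make red cells, mainly when demand for them is high.

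The 250 bases upstream of the annotated start of each gene are shown because the report turns on which of the 4 genes moved apart, and the windows show which common promoter letters they share. They come from RefSeq, build GRCm38.p6, and are written 5′ to 3′ on the gene's strand. Capitals mark letters on either strand that are typical of factor families. These were GATAA for the GATA factors, CACCC for the Krüppel-like factors, CCAAT for the factors that bind such boxes, TATAA for the TATA-binding protein and GGGCGG for Sp1. The windows are Hba-a1 at chr11:32283422-32283671 (+ strand), Hba-x at chr11:32276350-32276599 (+ strand), Hbb-y at chr7:103853208-103853457 (- strand) and Eif2ak1 at chr5:143817542-143817791 (+ strand).
Hba-a1: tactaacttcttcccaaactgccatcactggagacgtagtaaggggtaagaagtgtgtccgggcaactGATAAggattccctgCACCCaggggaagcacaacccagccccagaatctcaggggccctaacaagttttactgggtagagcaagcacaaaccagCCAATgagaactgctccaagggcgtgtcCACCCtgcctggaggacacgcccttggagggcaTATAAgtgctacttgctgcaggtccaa
Hba-x: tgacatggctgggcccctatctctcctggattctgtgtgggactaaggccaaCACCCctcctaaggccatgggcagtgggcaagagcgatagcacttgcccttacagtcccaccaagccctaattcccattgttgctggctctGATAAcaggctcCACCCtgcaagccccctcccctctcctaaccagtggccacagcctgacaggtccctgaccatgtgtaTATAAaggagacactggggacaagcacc
Hbb-y: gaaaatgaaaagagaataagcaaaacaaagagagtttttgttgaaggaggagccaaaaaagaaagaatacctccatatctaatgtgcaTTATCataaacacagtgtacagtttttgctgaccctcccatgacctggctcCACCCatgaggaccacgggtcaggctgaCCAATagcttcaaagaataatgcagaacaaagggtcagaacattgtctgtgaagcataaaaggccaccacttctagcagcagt
Eif2ak1: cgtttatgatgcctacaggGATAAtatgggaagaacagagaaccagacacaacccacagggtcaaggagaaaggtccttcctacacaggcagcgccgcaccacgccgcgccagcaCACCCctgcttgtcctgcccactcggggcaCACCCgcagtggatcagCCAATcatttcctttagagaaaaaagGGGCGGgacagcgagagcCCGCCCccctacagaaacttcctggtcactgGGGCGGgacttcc
GATAA letters occurred 1 time in each of the 4 windows, and they occurred in 22.6% of all 32851 RefSeq windows of this length. CACCC letters occurred 2 times in Hba-a1, Hba-x and Eif2ak1 and 1 time in Hbb-y, against 52.0% of all windows with at least 1. CCAAT letters occurred in all but Hba-x (33.8% of windows), and TATAA in Hba-a1 and Hba-x (22.8%). GGGCGG letters occurred 3 times in Eif2ak1 and in none of the globin windows (32.7%). No matches of different motifs shared letters. A match is a description of letters and not of a bound site. The 300-base windows of Hba-a1 and its neighbour copy Hba-a2 shared a run of 297 bases, and Hba-x lay next to Hba-a1 in the order of genes on chromosome 11.

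A spot was called higher or lower when the adjusted p of limma's test was under 0.05 (Benjamini-Hochberg over 14605 probes). Of the 12 spots, 2 were called higher in AcB55 than in A/J, against 10.3% of all tested probes, and 6 were called higher in AcB61, against 10.5%. Between the strains, 4 spots were called higher in AcB61 than in AcB55, against 5.2% of all probes. None of the 12 was called lower by limma in these comparisons, against 11.1%, 12.9% and 7.02% of all probes, nor was any lower at an unadjusted p under 0.05. The calls came from 3 genes. Hba-x and Eif2ak1 were higher than A/J in both strains, all 4 Hbb-y spots were higher in AcB61, and the Hba-a1 spots were not called anywhere.

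**Figure D1:**
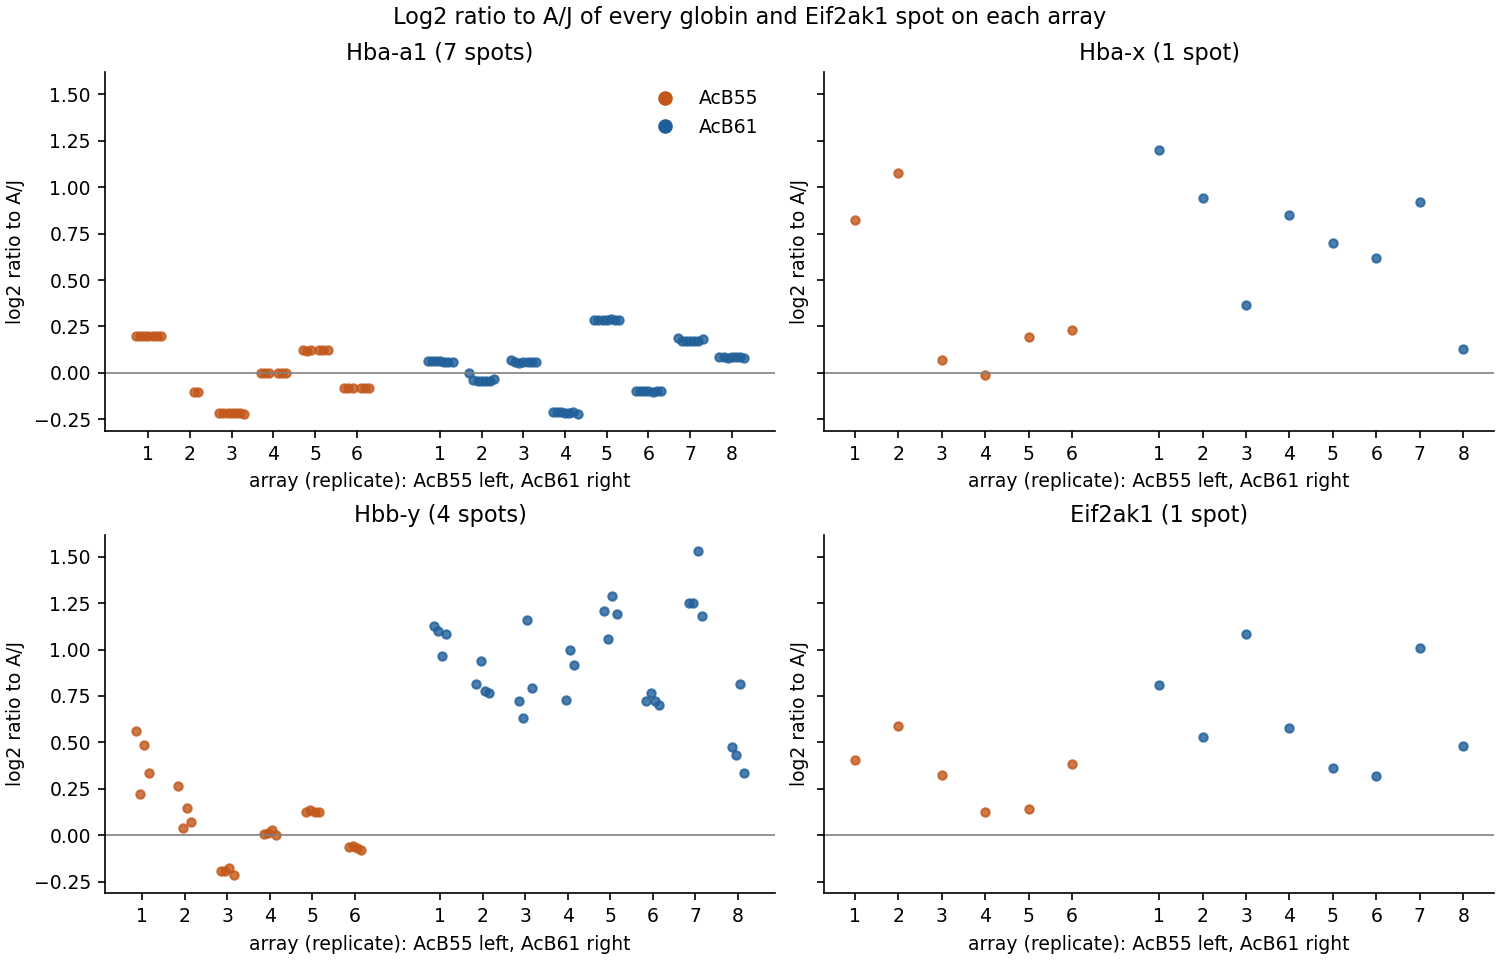
Each point is 1 spot on 1 array, with the log2 ratio of the strain to A/J on the y axis and the array (replicate number, AcB55 left in orange, AcB61 right in blue) on the x axis, 1 panel per gene. The Hba-a1 spots of an array lie on top of each other, at values from -0.22 to 0.29 over the arrays. The Hbb-y spots lie close to the Hba-a1 spots on AcB55 arrays 3 to 6 and above 0.33 on every AcB61 array. Eif2ak1 lies above 0 on all 14 arrays.

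The adult alpha globin spots gave nearly the same ratio on any one array. On AcB55 array 1 the 7 Hba-a1 spots read between 0.197 and 0.199, on AcB55 array 3 between -0.219 and -0.218, and on AcB61 array 5 between 0.284 and 0.288. Over the arrays, the range between the spots was 0.0003 to 0.0047 in AcB55 and 0.0030 to 0.041 in AcB61. On AcB55 array 2 the range rests on 2 spots, since the others had no value there. Such agreement was not shared by other clones spotted 4 or more times. The median range over the 6 spots of the first Hba-a1 clone was 0.0037, against 0.150 for the next of the 8 clones of this kind, 0.202 for the Hbb-y clone and a median of 0.194.

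Across arrays, in contrast, the Hba-a1 values moved like those of an ordinary probe. Spot 5, which had a value on every array, ran from -0.22 through a median of -0.04 to 0.20 in AcB55 and from -0.22 through 0.06 to 0.29 in AcB61, so the strains overlapped fully. The SD of the tested Hba-a1 spots over arrays, 0.154 to 0.165 in AcB55 and 0.155 to 0.158 in AcB61, was larger than that of 52.4% to 59.1% of probes in AcB55 and of 40.2% to 42.0% in AcB61. The spots thus differed little from each other on an array while the array's common value differed between arrays.

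Other probes held the same value on the same arrays. Within 0.005 of the Hba-a1 median lay 4 other probes on all 14 arrays and 15 on at least 10 arrays, 3 of the 15 with a single gene symbol. These were Myo5b (a motor protein, 12 arrays), Rpap3 (a cochaperone in the assembly of RNA polymerase, 11 arrays) and Grn (progranulin, 10 arrays), and all 3 were named after their values were seen. Rpap3 read 0.20 on AcB55 array 1, -0.22 on AcB55 array 3 and 0.29 on AcB61 array 5, where the Hba-a1 medians were 0.20, -0.22 and 0.29. On 8 of 14 arrays the most frequent value of all other probes, taken to 3 decimals, lay within 0.002 of the Hba-a1 median. Aligned on that median and pooled over arrays, 404 values of other probes fell in the 0.001-wide bin at 0 in AcB55, against 103 to 152 in the bins at least 0.002 away. In AcB61 the bin at 0 held 293 values, against 133 to 233. On single arrays the count within 0.001 ran from 34 to 155 probes and was 0.66 to 3.06 times that in flanking windows of the same width, with 6 arrays at 2 or more. The tolerances were chosen after the values were seen.

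**Figure D2:**
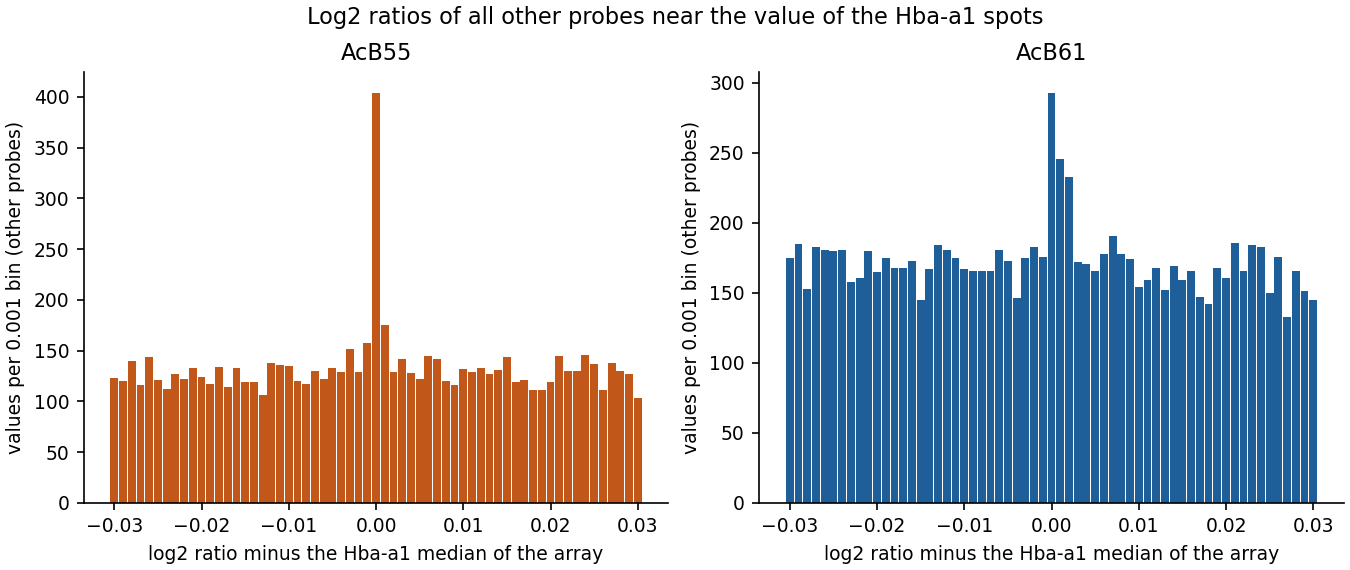
The histograms count the log2 ratios of all probes other than the Hba-a1 spots in bins of 0.001, after the Hba-a1 median of the same array was subtracted, for the AcB55 arrays (left) and the AcB61 arrays (right). A peak stands at 0 in both strains, with 404 and 293 values. In AcB61 it has a shoulder on the right, with 246 values at 0.001 and 233 at 0.002. The median of the AcB61 bins at least 0.002 away is 168.

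The strain means of the Hba-a1 spots rest on these shared values. They were -0.01 to 0.01 in AcB55 (adjusted p 0.931 to 0.982) and 0.04 to 0.05 in AcB61 (adjusted p 0.639 to 0.722). The difference between the strains was 0.03 to 0.05 (adjusted p 0.746 to 0.858, with 95% intervals from -0.16 to 0.24 over the spots). No difference of adult alpha globin between the strains and A/J was detectable from spots of this kind, and their ratios do not show that its RNA was equal. Spot intensities were not used here, so whether the spots were at the limit of the scanner was not tested, and neither was binding of other globin RNAs. The probe annotated to the adult beta globins (Hbb-b1, Hbb-b2, Hbb-bs and Hbb-bt together) lay within 0.005 of the Hba-a1 median on 6 of 6 AcB55 arrays and 2 of 8 AcB61 arrays. It averaged -0.01 ± 0.15 in AcB55 (SD, n = 6, adjusted p 0.934 by limma) and 0.10 ± 0.18 in AcB61 (SD, n = 8, adjusted p 0.281).

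**Figure D3:**
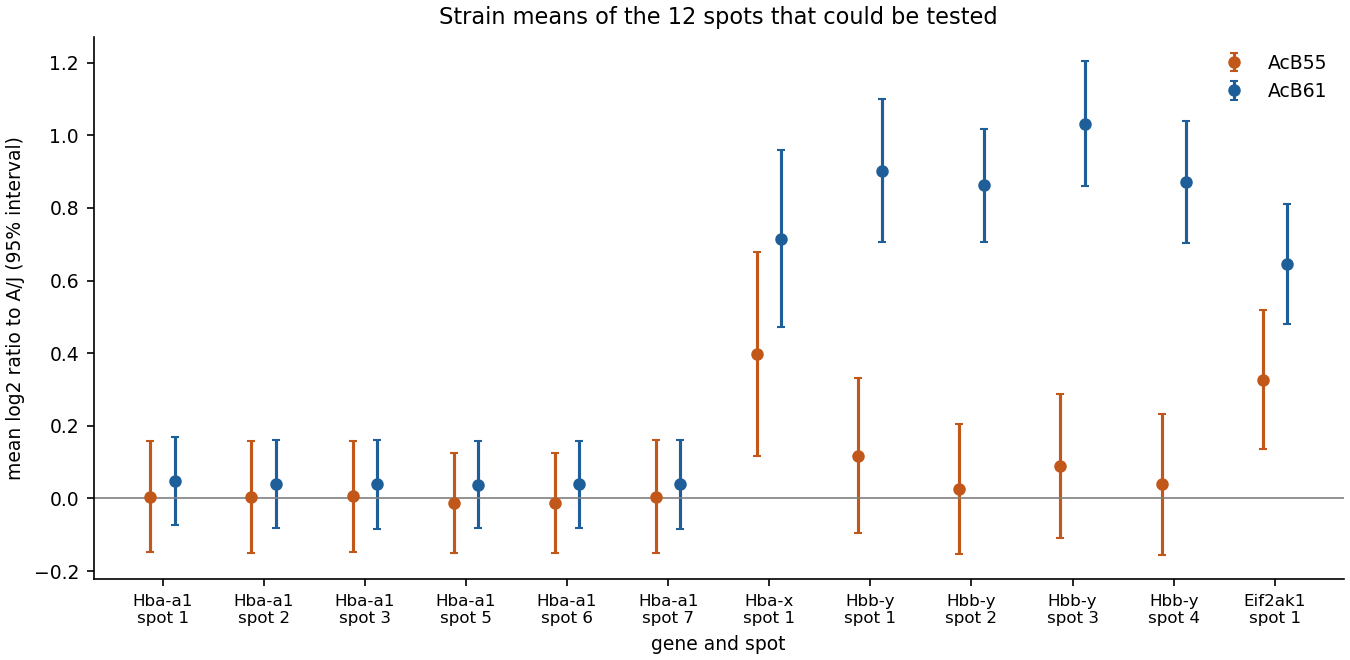
Points give the mean log2 ratio to A/J of each of the 12 tested spots in AcB55 (orange) and AcB61 (blue), and bars the 95% interval from the limma fit over 14 arrays. The Hba-a1 intervals all include 0 in both strains, the 4 Hbb-y spots stand at 0.86 to 1.03 in AcB61 and 0.03 to 0.12 in AcB55, and Hba-x and Eif2ak1 lie above 0 in both.

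Hba-x, the embryonic zeta chain, was higher in AcB61 than in A/J on 8 of 8 arrays. Its log2 ratio there ran from 0.13 through a median of 0.78 to 1.20, with a mean of 0.72 ± 0.34 (SD, n = 8, adjusted p 0.00023 by limma, exact sign-flip p 0.0078, the smallest 8 arrays allow). In AcB55 the 6 arrays read 0.83, 1.07, 0.07, -0.01, 0.20 and 0.23, so arrays 1 and 2 were high and the other 4 lay between -0.01 and 0.23. Their mean of 0.40 ± 0.44 (SD, n = 6) passed by limma (adjusted p 0.0404) and not by the exact sign-flip test (p 0.0625). The AcB55 call rested on arrays 1 and 2. Without both, the mean was 0.12 with an adjusted p of 0.615. It was also lost without any one of arrays 1, 2, 5 and 6, when arrays were scaled or quantile normalized, and with array weights. The difference between the strains was 0.32 (95% interval -0.05 to 0.69, adjusted p 0.259, exact permutation p 0.155) and the ranges overlapped. That difference became 0.59 (adjusted p 0.0188) without AcB55 arrays 1 and 2, so the test between the strains also depended on them. It was 0.11 with the leading digits of the title number as a block and 0.13 without AcB55 arrays 3 and 4, with no call in either.

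AcB55 arrays 1 and 2 stood apart in other genes as well, among them granulocyte and haem synthesis genes. S100a9, a calcium-binding protein of neutrophils, read 1.48 and 1.94 on them and -0.10 to 0.26 on the other AcB55 arrays. The mean of the 3 measured granulocyte markers (Lcn2, Ltf and S100a9) was 1.38 and 1.78 there, -0.06 to 0.20 on the other 4 and 0.39 to 1.18 in AcB61. The mean of the 6 measured markers of red cell precursors was 0.70 on array 2, 0.53 to 0.67 on the other 4 and 0.56 to 0.83 in AcB61. On array 1 it was 0.68 without Slc4a1, which had no value there. Slc4a1 read 0.84 on array 2 and 1.14 to 1.65 on AcB55 arrays 3 to 6, so the mean of array 1 is not on the same footing. The mean of the 14 haem synthesis genes was 0.64 on arrays 1 and 2, 0.24 to 0.40 on the other 4 and 0.45 to 0.70 in AcB61. Alas2, the erythroid enzyme of that list, read 0.73 and 0.74 on them, 0.66 on AcB55 array 5 and 0.08 to 0.14 on arrays 3, 4 and 6. Some other lists set arrays 1 and 2 apart too. Cycling cell markers averaged 1.10 and 1.07 on them and 0.74 to 1.00 on the other AcB55 arrays. Stroma and vessel markers averaged -0.57 and -0.48, against -0.44 to -0.14. Macrophage markers did not set them apart (-0.21 and -0.49, against -0.53 to -0.15). The part of any of these genes in the Hba-x values was not tested.

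**Figure D4:**
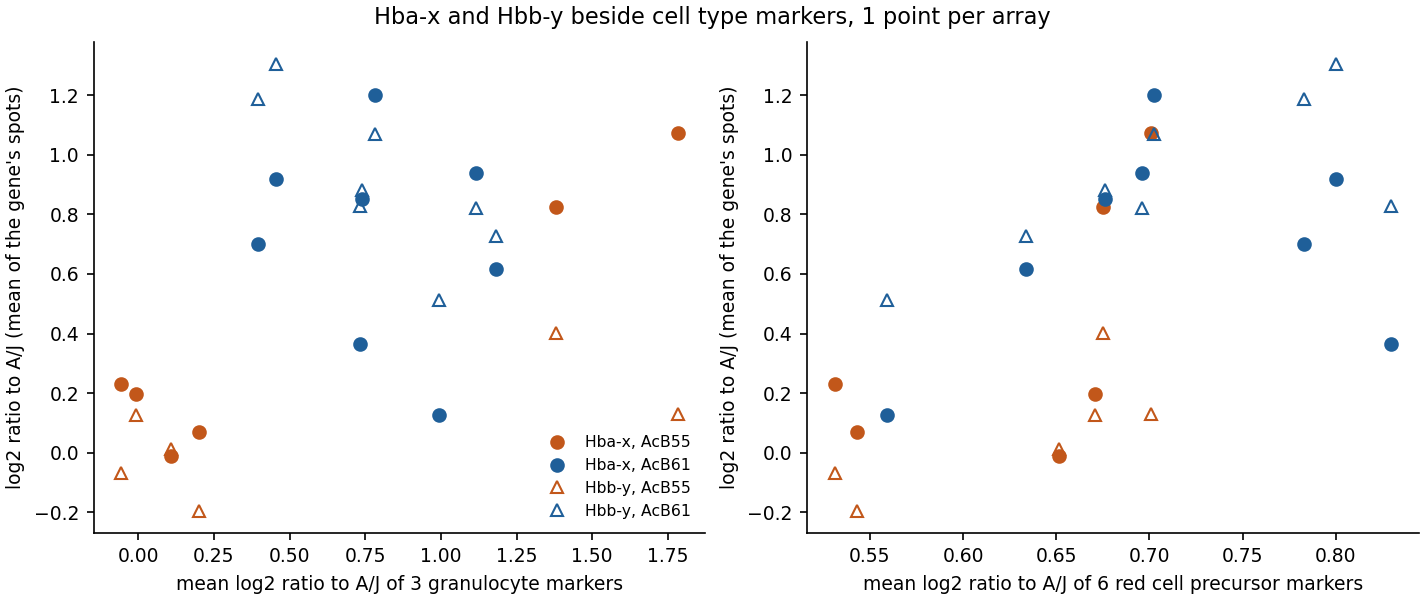
Each array is a point for Hba-x (filled circles) and for Hbb-y (open triangles, mean of its spots), in AcB55 (orange) and AcB61 (blue). The y axis is the log2 ratio to A/J and the x axis the mean log2 ratio of 3 granulocyte markers (left) or 6 red cell precursor markers (right). The red cell marker Slc4a1 had no value on AcB55 array 1 and is left out of the mean there. The AcB55 arrays at 1.38 and 1.78 on the granulocyte axis are those with Hba-x at 0.83 and 1.07. Within AcB61 the order differs. Array 8, at 0.99 on that axis, has Hba-x at 0.13, and arrays 5 and 7, at 0.39 and 0.45, have it at 0.70 and 0.92.

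Hbb-y, annotated as the embryonic beta-like chain, was the only gene of the 4 with spots called between the strains. Averaged over its spots, it read between 0.51 and 1.30 on the 8 AcB61 arrays. On the AcB55 arrays it read 0.40, 0.13, -0.19, 0.01, 0.13 and -0.07. All 8 AcB61 averages were above the highest AcB55 average. The 4 spots had means of 0.86 to 1.03 in AcB61, and each was above 0 on every AcB61 array with a value (adjusted p from 2.63e-07 to 4.00e-06 by limma, exact sign-flip p 0.0078 or, for spot 1 with 7 arrays, 0.0156). Among all probes, 6.42% were above 0 on every AcB61 array with a value. In AcB55 the spot means were 0.03 to 0.12, and none was called (adjusted p 0.490 to 0.891, with 95% intervals from -0.16 to 0.33 over the spots).

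The difference between the strains was tested in the same limma fit for each spot. It was 0.79 for spot 1 (95% interval 0.49 to 1.08, adjusted p 0.0022), 0.84 for spot 2 (0.60 to 1.07, 0.00032), 0.94 for spot 3 (0.68 to 1.20, 0.00028) and 0.83 for spot 4 (0.58 to 1.09, 0.00055). The exact permutation p ran from 0.00033, the smallest that 6 against 8 arrays allow, to 0.0017. For spots 2 and 3 the strains did not overlap, which held for 1.05% of all probes in this direction. For spots 1 and 4 they overlapped, with 6 of 7 and 7 of 8 AcB61 arrays above the highest AcB55 array. The spots moved together over arrays (Pearson 0.927 to 0.986, Spearman 0.881 to 0.984, over 13 or 14 arrays and as a description, since they share a clone and the arrays).

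The titles of the arrays held a number of unstated meaning, and the strains were spread unevenly over its leading digits. With those digits as a block, the median difference of the Hbb-y spots was 0.76 and all 4 spots stayed past the threshold (adjusted p 0.0094 to 0.0466). Within the single series of numbers that held 3 arrays of each strain it was 0.83, and none of the 4 passed (adjusted p 0.170 to 0.250). In that smaller set only 2 probes passed in all, against 1785 in the full fit.

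On AcB55 arrays 3 to 6 the Hbb-y spots lay close to the value held by the Hba-a1 spots. The number of AcB55 arrays on which a spot was within 0.005 of it was 2, 0, 1 and 4 for spots 1 to 4, and within 0.03 it was 4, 5, 3 and 4. No Hbb-y spot came within 0.03 of it on an AcB61 array. Set against the Hba-a1 median of the same array, Hbb-y averaged 0.08 ± 0.11 in AcB55 (0.003 to 0.232) and 0.88 ± 0.22 in AcB61 (0.43 to 1.13). The difference was 0.80 (exact permutation p 0.00033). Hba-a1 averaged over its spots differed by only 0.05 between the strains, so the subtraction could change the Hbb-y difference little. It cannot tell whether the AcB55 values reflect Hbb-y RNA. With values within 0.005 of the Hba-a1 median removed, 3 Hbb-y spots could be tested and all 3 remained past the threshold between the strains, with a median difference of 0.84. Spot 4, which lay within 0.005 on 4 AcB55 arrays, was the spot that could no longer be tested. Values more than 0.005 away stayed in, so most of the AcB55 values near the shared value in spots 1 to 3 were kept. Whether the AcB55 values near the shared value measure Hbb-y RNA was not tested. Binding of other globin RNAs to the Hbb-y and Hba-x spots was not tested either, in any strain.

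Eif2ak1, the haem-regulated kinase, was higher than A/J on all 14 arrays. In AcB55 it ran from 0.12 through a median of 0.35 to 0.59, with a mean of 0.33 ± 0.17 (SD, n = 6, adjusted p 0.0138 by limma, exact sign-flip p 0.0312, the smallest 6 arrays allow). In AcB61 it ran from 0.32 through 0.55 to 1.08, with a mean of 0.65 ± 0.29 (SD, n = 8, adjusted p 1.40e-05, exact sign-flip p 0.0078). Among all probes, 11.0% were above 0 on every AcB55 array with a value. The AcB61 mean was 0.32 above that of AcB55 (95% interval 0.07 to 0.57), with 3 of 8 AcB61 arrays above the highest AcB55 array. That difference did not pass the threshold by limma (adjusted p 0.0908). Its exact permutation p, with no adjustment for the exact tests of the other spots and comparisons, was 0.0373. The AcB55 call was lost without array 2 (0.28, adjusted p 0.0593) and without arrays 1 and 2 together (0.24, adjusted p 0.164).

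Genes around the kinase were counted in a fit with probes of a gene averaged, where 9.77% of 13045 features were higher and 10.9% lower in AcB55, and 10.5% higher and 13.3% lower in AcB61. Of the 12 measured genes for eIF2 kinases, eIF2, its exchange factor and its phosphatase, 5 were higher and 0 lower in AcB55 (median 0.17), and 7 were higher and 0 lower in AcB61 (median 0.22). The medians over all features were -0.0019 and -0.00067. Without Eif2ak1 itself these counts were 4 and 6 of 11. Ppp1cb, a catalytic subunit of protein phosphatase 1, stood at 0.81 ± 0.25 in AcB55 (SD, n = 6) and 0.63 ± 0.34 in AcB61 (SD, n = 7). Ppp1r15a, which directs that phosphatase to eIF2, stood at 0.53 and 0.46, and its constitutive counterpart Ppp1r15b was called in both strains as well, at 0.31 and 0.25. Eif2s3x, the gamma subunit of eIF2, was higher in both at 0.53 and 0.25. Eif2s2, the beta subunit, was higher in AcB61 (0.39) and read 0.07 in AcB55 with no call, and the strains differed by 0.33 (adjusted p 0.0218). Eif2ak4, the kinase that senses uncharged tRNA and the only other eIF2 kinase measured, read 0.05 and -0.03 with no call.

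Atf4, whose translation rises when eIF2 is phosphorylated, was itself higher in RNA, at 0.28 ± 0.10 in AcB55 (SD, n = 6, adjusted p 0.0104 by limma) and 0.46 ± 0.23 in AcB61 (SD, n = 8, adjusted p 5.35e-05). The list of 12 measured stress response targets, Atf4 included, had 3 members higher and 1 lower in AcB55 and 2 higher and 0 lower in AcB61, with medians of -0.04 and 0.03. Asns, asparagine synthetase, and Slc3a2, the heavy chain of amino acid transporters, were the other AcB55 members at 0.47 and 0.33, and the lipoprotein receptor Vldlr fell by 0.35 there. In AcB61 the other member was Shmt2, a mitochondrial enzyme of serine and glycine metabolism, at 0.28. Trib3, Atf3, Psat1, Phgdh and the remaining members were not called in either strain.

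A further list around the kinase held chaperones, a phosphatase and Bach1. Among its 6 measured genes, 3 were higher in AcB55 and 2 in AcB61, Bach1 included, with none lower. Hsp90aa1, a chaperone that holds the immature kinase, was the largest at 0.70 ± 0.11 (SD, n = 6) and 0.59 ± 0.13 (SD, n = 8). Hspa8, the constitutive Hsp70, was higher in AcB55 (0.40) and read 0.13 in AcB61 with no call, a difference of -0.28 (adjusted p 0.0234). Ppp5c, a phosphatase bound to Hsp90, was called in AcB55 at 0.23, and Bach1, a repressor that haem inactivates, in AcB61 at 0.17.

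By count, haem synthesis and mitochondrial carriers were the list with the most members called. The cycling cell markers had a larger share called, with all 6 measured higher in both strains. Of 14 measured genes, 11 were higher in AcB55 (median 0.42) and 12 in AcB61 (median 0.53), with none lower. Abcb10, a transporter of the inner mitochondrial membrane, was at 0.85 and 0.70. Alas2, which makes the first intermediate of haem in erythroid cells, was at 0.41 and 0.92. Between the strains 4 members were higher in AcB61 and none lower, against 5.29% and 6.98% of all features, and the 4 were Alas2, Alas1, Glrx5 and Tmem14c. Alas1, the enzyme of other cells, read 0.03 in AcB55 with no call and 0.41 in AcB61. Alad, the next enzyme of the pathway, was at 0.50 and 0.96, and its difference did not pass (0.46, adjusted p 0.0517).

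**Figure D5:**
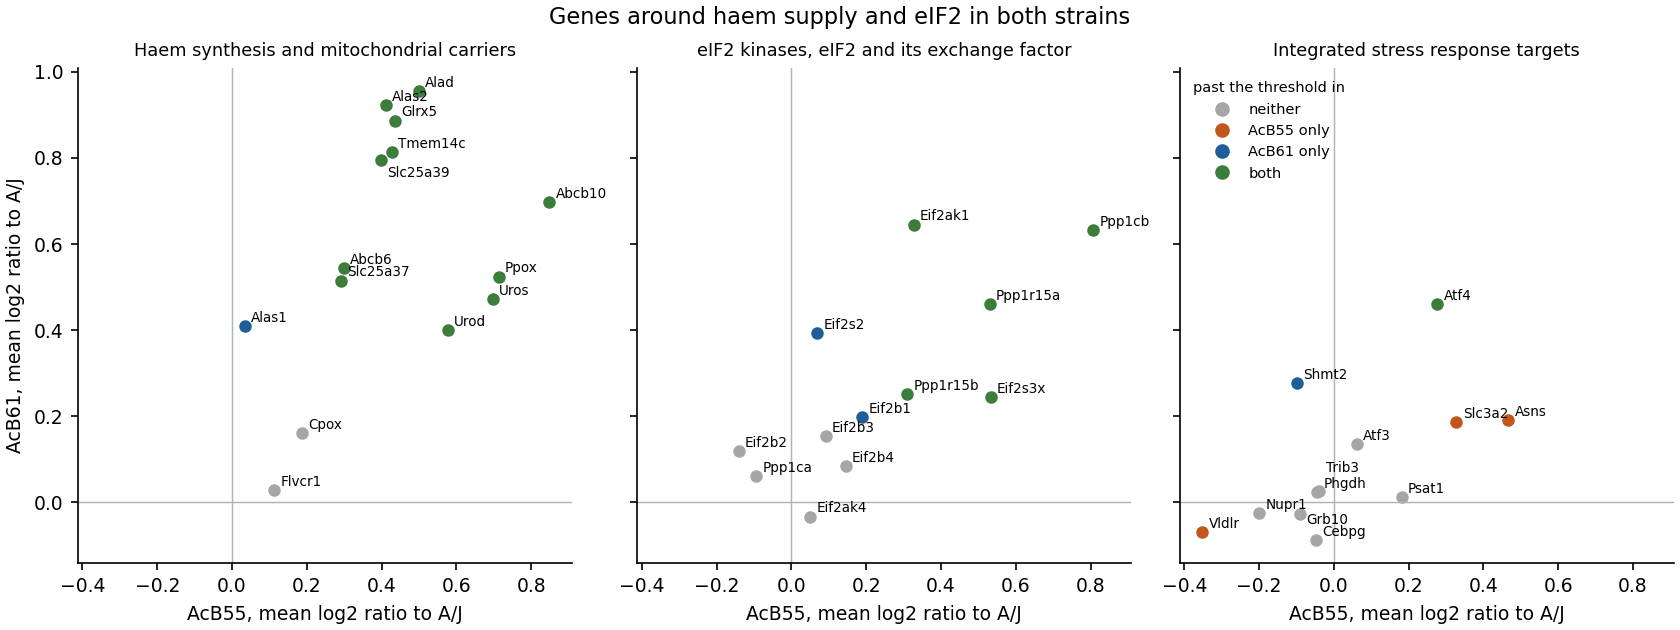
Each point is a gene, with its mean log2 ratio to A/J in AcB55 (x axis) and in AcB61 (y axis), for 3 gene lists. Colours show in which strain it passed the threshold (green both, orange AcB55, blue AcB61, grey neither). Haem synthesis genes lie to the upper right, Eif2ak1 stands at 0.33 and 0.65 among the eIF2 genes, and most stress response targets lie near 0.

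Of the globin list, 4 genes were measured with a single symbol. The only one outside the 4 described here, Ngb, the globin of neurons, averaged 0.0047 ± 0.089 (SD, n = 6) and 0.04 ± 0.11 (SD, n = 8) with no call. Of 6 measured transcription factors that act at globin loci, 2 were higher in AcB55 and 3 in AcB61. Foxo3, a factor of red cell maturation, was higher in both, at 0.31 and 0.43. Nfe2l2, a factor of the oxidant response, was higher in AcB55 (0.34), read 0.01 in AcB61 with no call and differed between the strains by -0.33 (adjusted p 0.0097). Mafg, a small Maf partner, was called in AcB61 at 0.32, as was Bach1, which both lists hold.

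Markers of cell types moved with the strains too. Of 6 measured markers of red cell precursors, 5 were higher and 1 lower in AcB55, and 5 higher and 0 lower in AcB61. Slc4a1, which exchanges chloride and bicarbonate across the red cell membrane, was at 1.28 ± 0.31 (SD, n = 5) and 1.07 ± 0.23 (SD, n = 8), and Ermap fell by 0.24 in AcB55. All 6 measured markers of cycling cells were higher in both strains. The lower markers included 3 of 4 macrophage genes in AcB55 and 1 of 4 in AcB61, 5 of 5 and 3 of 5 of stroma and vessels, and the B cell gene Blnk at -1.07 and -0.58. Among the stroma genes Col3a1, a fibrillar collagen, was lower in AcB55 at -0.14 and higher in AcB61 at 0.43, and the strains differed by 0.57 (adjusted p 3.10e-05 by limma). The 2 measured megakaryocyte and platelet genes were lower in AcB61 and not called in AcB55, and the T cell gene Satb1 was lower in AcB55 at -0.18. Cpa1, the measured gene of exocrine pancreas, read 2.37 on AcB55 array 1 and -1.19 to -3.58 on the AcB55 arrays 3 to 6. The part of the mix of cells in the values of Hba-x, Hbb-y and Eif2ak1 was not tested. Hbb-y differed between the strains while Slc4a1, Car1, Rhd and Tfrc did not pass between them (adjusted p 0.320 to 0.883), and Alas2 and Ermap did.

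For each gene, the 5 single-symbol genes most like it over the 14 arrays were taken by Pearson correlation among 5793 genes, as a description in which all points share the arrays and A/J. Rpap3 headed the list of Hba-a1 at 0.994, also with the strain means subtracted, followed by Phtf1 (0.892), Fbxo7 (0.882), Ap2a2 (0.852) and Gpatch2 (0.821). Rpap3, Phtf1 and Ap2a2 were also among the probes within 0.005 of the Hba-a1 value on 7 or more arrays, so this likeness includes the shared value. Cep97, a centrosome protein, was nearest to Hba-x (0.873), and with the strain means subtracted the value was 0.859. Hbb-y was most like Rps6ka3, a ribosomal S6 kinase (0.931, and 0.749 with strain means subtracted), Gtf2h1, a subunit of the general transcription factor TFIIH (0.929 and 0.807), 4930402H24Rik, Snx33 and Otulin. Eif2ak1 was most like Cdk2ap1 (0.896), Atp8b1 (0.889), the proteasome subunits Psmc2 (0.882) and Psmd7 (0.875), and Nectin2 (0.874).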

How the data were processed

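Spleen RNA of AcB55 (6 arrays) and AcB61 (8 arrays) was hybridised with A/J spleen RNA on cDNA arrays. Per the labels' protocols, reverse transcription of total or poly(A) RNA gave cDNA labelled with Cy3 or Cy5, which was scanned with ScanArray, quantified with QuantArray 3.0 and imported into GeneSpring with spot quality information. The label text breaks off at the dye swap, so normalization, dyes and log base are not given in the sources used here. All deposited values are log2 ratios by assumption, since they are signed decimals with array medians from -0.02 to 0.01 and base 2 was taken. Another base would scale all values alike. Intensities were not used here, and the number of arrays limits the precision.

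Gene names came from the platform annotation (7849 measured probes with 1 symbol, 356 with several, 6407 with none). R 4.3.3 with limma 3.58.1 (lmFit, a mean per strain over 14 arrays, eBayes) tested each of 14605 probes with values on at least 3 arrays per strain, with Benjamini-Hochberg adjustment and a threshold of 0.05. This was tested on simulated data. Exact two-sided sign-flip and permutation tests were run per spot, 36 of them on the 12 spots that limma tested. Hba-a1 spot 4 and the adult beta globin probe were given the same exact tests besides. Lists and nearest genes used a fit with probes of a gene averaged (13045 features). From each list up to 4 called genes with the largest means were named per comparison, and for each of the 4 genes the 5 nearest by Pearson correlation. Genes outside this rule, among them uncalled values of named genes and the marker genes, were named after their values were seen. Members, lists and tests were chosen with earlier results of these data known. Alternatives were averaging, centring, scaling, quantile normalization, filters, robust moderation, array weights, single-strain fits, title numbers and leaving out arrays. Tables and figures used Python 3.11.15, numpy 2.4.6, pandas 2.3.3 and matplotlib 3.10.9.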

Additional observations from a re-analysis of the deposited data

Results flagged for a closer look

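The contrast with A/J differed between AcB61 and AcB55 for Hbb-y, by the test of the difference itself in the limma fit. The differences, AcB61 minus AcB55, were 0.79 for spot 1, 0.84 for spot 2, 0.94 for spot 3 and 0.83 for spot 4 on the log2 scale, with adjusted p from 0.00028 to 0.0022. The 4 spots carry the same clone and share the arrays, so they count as a single result. All 4 stayed past the threshold with the leading digits of the title number as a block (adjusted p 0.0094 to 0.0466), and none passed within the series of numbers holding 3 arrays of each strain (adjusted p 0.170 to 0.250). On AcB55 arrays 3 to 6 the spots lay near the value shared by the Hba-a1 spots, and the part of this in the difference was not tested beyond the values given above. In the 25 groups of values tested, no array stood far from the others of its strain by Dixon's test, which by chance marks 1 in 20 groups. That test looks for a single array and can miss arrays that are high together, as AcB55 arrays 1 and 2 were for Hba-x. The Hba-a1 spots held nearly the same values, so the groups were not independent.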

How the results depend on the processing

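No paired analysis was possible because the labels give no replicate numbers. The counts of probes past the threshold against A/J stayed within 1.5 times of 3127 (AcB55) and 3415 (AcB61) in all 26 alternatives each. The count between strains, 1785, became 3165 with array weights, 805 without the arrays titled b (AcB55 arrays 3 and 4), 298 with the title number as a block and 2 in its series of 3 against 3 arrays, and ran from 966 to 1898 without single arrays. It fell below the main count by over 1.5 times without AcB55 array 5 (1033) or 6 (966).

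Hba-a1 was never called, and its median over spots changed sign. In AcB55 (0.0045) it was -0.013 with spots averaged, -0.0055 with scaling and with quantile normalization, -0.013 for probes with all 14 arrays, -0.043 without AcB55 arrays 1 and 2, and -0.044 to 0.060 without single arrays. In AcB61 (0.039) it was -0.0010 with array weights. Between strains (0.039) it was -0.0037 with array weights, -0.036 without the arrays titled b, and -0.016 to 0.088 without single arrays.

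Hba-x in AcB55 lost its call with scaling (0.38), quantile normalization (0.41), array weights (0.30), without arrays 1 and 2 (0.12), and without array 1, 2, 5 or 6 singly (0.26 to 0.48 over single arrays, adjusted p 0.0255 to 0.185). Between strains it was called with array weights (0.56) and without those arrays (0.59), and its 0.32 fell to 0.11 with the title number as a block, 0.13 without the arrays titled b and 0.18 in the series of 3 against 3. Hbb-y in AcB55, never called, was -0.028 without those arrays and -0.00086 to 0.116 without single arrays. Between strains it lost its calls in the series of 3 against 3 (0.83) alone. Eif2ak1 in AcB55 lost its call without those arrays (0.24) and without array 2 (0.28 to 0.37 over single arrays), and between strains it was called with array weights (0.39). In AcB61, the calls of Hba-x, Hbb-y and Eif2ak1 held in all 26 alternatives each. Those that left out only AcB55 arrays could not move an AcB61 mean, and changed only the shared estimate of spread. The alternatives by title number were fitted between the strains only, so calls against A/J were not put to them. The alternatives without AcB55 arrays 1 and 2 together, and with values at the Hba-a1 value removed, were chosen after seeing the data. Causes were not tested.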

Other observations

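The value shared by the Hba-a1 spots was held by partly the same probes in both strains. Within 0.005 of it lay 19 other probes on all 6 AcB55 arrays and 5 on all 8 AcB61 arrays, and 4 did so on all arrays of both strains, with 4 more on all 6 AcB55 arrays and 7 of 8 AcB61 arrays. The probe of Tyms, thymidylate synthase, followed it on 8 of 8 AcB61 arrays, reading 0.06, -0.04, 0.06, -0.22, 0.29, -0.10, 0.17 and 0.09, and on 0 of 6 AcB55 arrays, where it read -0.35 to 0.02. In the other direction 4 probes, among them those of Clmn and Tia1, held the value on all 6 AcB55 arrays and on no AcB61 array. These genes were picked after their values were seen, and what sets the shared value was not tested.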
